A study of Mus musculus with 10 samples.

Results

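Homeostatic microglia are recognised by a set of genes that the resting brain macrophage transcribes strongly and that most other leukocytes do not. The 9 genes described here were Tmem119, Cx3cr1, Siglech, Sparc, Gpr34, Selplg, Slc2a5, Olfml3 and Crybb1, taken by name from a list of identity genes, out of 31053 genes counted. Microglia are the macrophages of the brain parenchyma, and they keep this programme under signals of healthy tissue such as transforming growth factor beta and through factors such as PU.1, Sall1, Maf and Mef2c. Around amyloid plaques they enter a disease-associated state (DAM), in which lipid-handling and lysosomal genes rise and many identity genes are known to fall.

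The cells were CD45+ leukocytes of whole mouse brain, profiled by droplet single-cell RNA-seq in 10 libraries, each from 3 mice and each the only library of its genotype and age. WT and Nlrp3KO mice, the latter lacking the inflammasome sensor Nlrp3 in every cell, were taken at 3, 6 and 9 months of age. APP/PS1 mice, which carry transgenes for mutant amyloid precursor protein and presenilin-1 expressed in neurons, and Nlrp3KO APP/PS1 mice were taken at 3 and 9 months, and all 4 genotypes came from littermates of a cross of Nlrp3KO with APP/PS1 animals. WT and Nlrp3KO mice are called non-diseased, and the WT and APP/PS1 libraries together Nlrp3WT. Because the Nlrp3 deletion is not restricted to microglia, a microglial difference between genotypes would not by itself be a microglial effect of the gene. Each age was a batch of its own in the deposited annotation, and the effects of age and of batch cannot be told apart.

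The annotation gave 40547 microglia and 4925 other leukocytes in these libraries, with 2223 to 9112 cells and 9357431 to 35107144 microglial unique molecular identifiers (UMIs, counted molecules) in a library. Nlrp3 itself had 0 UMIs in the microglia of the 5 Nlrp3KO libraries and 34.4 to 53.7 CPM (UMIs of the gene per 1000000 UMIs of the sum) in the 5 Nlrp3WT libraries. In the summed microglia 3 T cell markers came to 0.340 to 2.23 CPM in total and 7 border-associated macrophage markers to 4.88 to 14.4 CPM. Sums were higher for 3 astrocyte markers (175 to 218 CPM, nearly all Slc1a3, with Aqp4 and Gfap at most 0.166 and 0.235 CPM) and for 3 B cell markers (32.6 to 52.2 CPM, nearly all Cd79b). Neutrophil markers ranged from 0.387 to 43.0 CPM and were highest in WT of 6 months. Barcodes shared by 2 or more libraries covered 493 cells, or 1.08%. The annotation placed microglia in 6 states, namely homeostatic (HM), transitioning (TM), interferon-responsive (IRM), immediate early gene (IEG), proliferating (PM) and DAM. HM made up 53.7% and 58.9% of microglia in the APP/PS1 libraries of 9 months and 74.6% to 87.7% in the other 8 libraries.

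The genes lie on several chromosomes of the GRCm38 assembly. Tmem119 (chr5:113793729-113800516) and Selplg (chr5:113818536-113832644) lie 18.0 kb apart, both on the minus strand, and Crybb1 (chr5:112255815-112269585, plus strand) is on the same chromosome. Cx3cr1 spans chr9:119901616-120069879, Siglech chr7:55768178-55778925, Sparc chr11:55394500-55423183, Gpr34 chrX:13632089-13640858, Slc2a5 chr4:150119283-150144169 and Olfml3 chr3:103722222-103738001. In the GENCODE annotation no exon of any of them overlapped an exon of another gene on the same strand, and only Cx3cr1 overlapped a gene, Gm33858, on the opposite strand.

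Promoter sequences were held for 6 of the 9 genes (RefSeq, GRCm38.p6), and the 250 bases before the start are printed for 3 of them: Crybb1, which varied most between states, Siglech, which departed from the others, and Sparc, which varied least between libraries. The starts are those of RefSeq, and for Sparc the printed window lies inside the gene span given above. Capitals mark the MAF motif searched for, written TGCTGA on the given strand or TCAGCA on the other.
Crybb1, chr5:112255570-112255819, plus strand: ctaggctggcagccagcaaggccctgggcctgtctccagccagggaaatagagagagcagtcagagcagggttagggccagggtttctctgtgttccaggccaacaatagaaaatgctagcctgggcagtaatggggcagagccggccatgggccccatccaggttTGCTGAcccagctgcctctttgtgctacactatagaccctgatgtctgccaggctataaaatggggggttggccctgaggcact
Siglech, chr7:55767934-55768183, plus strand: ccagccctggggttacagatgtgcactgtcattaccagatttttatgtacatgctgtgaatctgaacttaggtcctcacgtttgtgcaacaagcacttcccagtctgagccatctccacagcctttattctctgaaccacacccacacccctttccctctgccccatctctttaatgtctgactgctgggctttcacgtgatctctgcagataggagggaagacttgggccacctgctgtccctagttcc
Sparc, chr11:55420081-55420330, minus strand: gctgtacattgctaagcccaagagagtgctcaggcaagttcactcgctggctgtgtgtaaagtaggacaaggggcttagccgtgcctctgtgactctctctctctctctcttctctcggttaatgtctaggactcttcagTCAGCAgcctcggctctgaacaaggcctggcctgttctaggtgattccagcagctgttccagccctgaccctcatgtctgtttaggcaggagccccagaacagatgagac
TGCTGA stood 84 bases before the start of Crybb1 and, on the opposite strand, 110 bases before that of Sparc, thus in 2 of the 6 windows, against 16.1% of 32851 promoter windows of the same length. The letters of PU.1 sites (GAGGAAGT, in 2.44% of all windows, and its core GAGGAA, in 23.3%), of a MEF2 site (TAAAAATA, 2.45%) and of a SMAD site (GTCTAGAC, 0.167%), searched on both strands, were in 0 of the 6 windows, and GAGGAA is contained in GAGGAAGT.

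In the summed microglia every gene was strongly detected, and the highest of 10 libraries was at most 1.503 times the lowest. Cx3cr1, the receptor of the neuronal chemokine fractalkine, had 4034 CPM in the lowest, 4577 in the median and 5400 in the highest library. Gpr34, a receptor for lysophosphatidylserine, ranged from 1923 over 2289 to 2488 CPM. For Cx3cr1 the 4 libraries of 3 months lay above the other 6, and the same held for Gpr34. Siglech, a sialic-acid-binding lectin that signals through the adaptor DAP12, ranged from 1679 over 1816 to 2061 CPM, with the APP/PS1 library of 9 months highest. Selplg, the P-selectin ligand of leukocytes, ranged from 2674 over 2846 to 3289 CPM and was highest in both libraries of 6 months. For both genes the libraries of the 3 ages did not overlap. The share of all genes separated by age in these ways was not counted. Between 3 and 9 months 23.3% of genes tested differed at an adjusted p under 0.05 (edgeR).

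Tmem119, a membrane protein used to separate microglia from infiltrating macrophages, ranged from 1384 over 1531 to 1759 CPM. Slc2a5, the fructose transporter GLUT5, ranged from 382 over 434 to 461 CPM. The secreted matrix glycoprotein Sparc had the narrowest spread, from 2937 over 3100 to 3240 CPM, with a coefficient of variation of 3.43%. The secreted olfactomedin-like protein Olfml3 was similarly even, with 1598, 1745 and 1816 CPM and a coefficient of variation of 3.78%. Crybb1, a beta-crystallin first known from the lens, varied most, from 333 over 432 to 500.2 CPM, with a coefficient of variation of 12.9%. The Nlrp3KO APP/PS1 library of 9 months was the lowest of 10 for 7 of the 9 genes in all microglia, but for 2 of the 9 among HM cells. The share of all genes lowest in that library was not counted. In HM alone the level of each gene stayed within 1.24-fold.

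**Figure D1:**
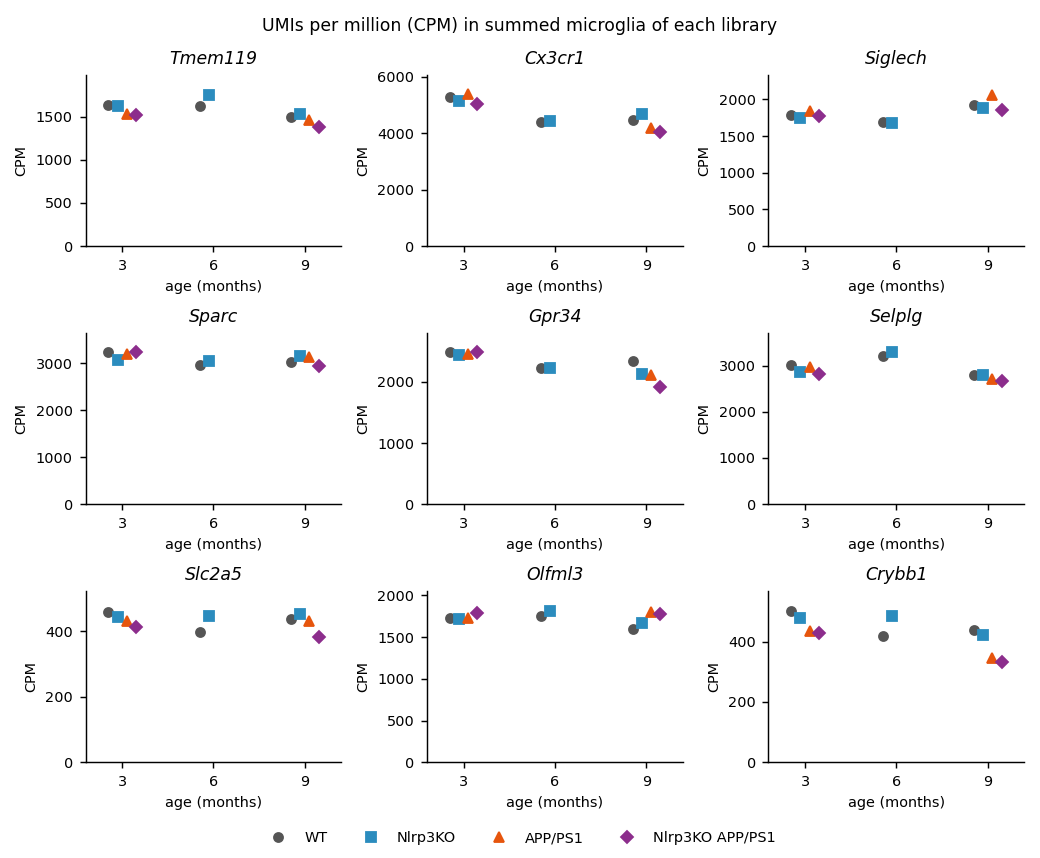
Level of each gene in the summed microglia of each library (CPM, y axis from 0) against age in months, with colour and marker for genotype and bars for the 95% Poisson interval of the count. The highest library is at most 1.503 times the lowest in any panel, Cx3cr1 and Gpr34 are highest at 3 months, and Crybb1 is lowest in both APP/PS1 genotypes of 9 months, at 344 and 333 CPM.

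Loss of Nlrp3 left no detectable change in the identity genes of microglia. In the 5 pairs of the same age and background, 0 of the 9 genes passed an adjusted p of 0.05 (edgeR quasi-likelihood test, Benjamini-Hochberg over all genes), where 5 of 12383 genes, or 0.0404%, did. No member had an unadjusted p under 0.05, while 574 genes did, and the DESeq2 Wald test called 12 genes and 0 members. The log2 differences of Nlrp3KO minus Nlrp3WT lay between -0.05 (Siglech) and 0.04 (Olfml3), with standard errors of 0.03 to 0.05. Siglech was lower in the Nlrp3KO library of all 5 pairs, with 1749 against 1790 CPM in non-diseased mice of 3 months and 1853 against 2061 CPM in APP/PS1 mice of 9 months, yet its adjusted p was 0.903. The difference of the Nlrp3KO effect between APP/PS1 and non-diseased mice was tested too, and 0 genes and 0 members passed in edgeR (1 gene and 0 members in DESeq2), with 0 members at an unadjusted p under 0.05. Of 20 further homeostatic genes, among them the purinergic receptor P2ry12 and the transcription factor Sall1, 0 passed.

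In APP/PS1 mice the identity genes of the summed microglia were close to those of non-diseased mice, with Crybb1 the gene farthest from 0. Crybb1 had 435 and 430 CPM in the APP/PS1 and Nlrp3KO APP/PS1 libraries of 3 months, where the WT and Nlrp3KO libraries had 500.2 and 478 CPM. At 9 months it had 344 and 333 CPM in the APP/PS1 genotypes and 437 and 424 CPM in WT and Nlrp3KO. The APP/PS1 library was the lower of each of the 4 pairs, although the groups overlapped across ages, between 424 and 435 CPM. The fitted log2 difference was -0.24 (SE 0.05, adjusted p = 0.257 in edgeR), so the gene did not pass over 12282 genes, and 0 of the 9 did (1 at an unadjusted p under 0.05), against 7 genes or 0.057% in all. With the DESeq2 Wald test 52 genes passed and Crybb1 was among them (adjusted p = 0.00675). In HM cells alone, the log2 difference of Crybb1 was -0.16, with an adjusted p of 0.900 in edgeR and 0 genes called.

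The other 8 genes had log2 differences between -0.10 (Slc2a5) and 0.10 (Olfml3), with standard errors of 0.05 to 0.06. Slc2a5 was lower in APP/PS1 in 4 of 4 pairs, with 382 to 431 against 438 to 461 CPM, and Olfml3 was higher in 4 of 4 pairs, with 1732 to 1797 against 1598 to 1727 CPM. The WT and Nlrp3KO libraries of 6 months, which were in no pair, had 398 and 448 CPM of Slc2a5 and 1759 and 1816 CPM of Olfml3. With them the groups overlapped for both genes. The share of all genes with 1 direction in all pairs was not counted. Neither passed (adjusted p = 0.695 and 0.721, edgeR). At 9 months alone, where 47 genes or 0.383% passed, 0 members did (2 at an unadjusted p under 0.05), and the log2 difference of Crybb1 was -0.29 (adjusted p = 0.194). The change of the APP/PS1 effect between 3 and 9 months passed for 0 genes in edgeR (7 in DESeq2) and had an unadjusted p under 0.05 for 0 members. Of the 20 further homeostatic genes 0 passed and 2 had an unadjusted p under 0.05. Of 13 genes known to rise in DAM, such as the lipid carrier Apoe and the lipase Lpl, 1 passed, the glycoprotein gene Gpnmb, which was higher. Of these 13, 10 had an unadjusted p under 0.05, with a median log2 difference of 0.92, and at 9 months alone 6 passed, all higher.

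Between 3 and 9 months 2 of the 9 genes passed, in opposite directions, against 2856 of 12282 genes or 23.3% in all (12.7% higher and 10.5% lower), so the share among the members was close to the background. Crybb1 fell by 0.19 on the log2 scale (SE 0.05, adjusted p = 0.0344, edgeR) and was lower at 9 months in 4 of 4 genotypes. Siglech had 1790, 1749, 1842 and 1770 CPM at 3 months in WT, Nlrp3KO, APP/PS1 and Nlrp3KO APP/PS1, and 1917, 1875, 2061 and 1853 CPM at 9 months. It rose by 0.19 on the log2 scale (SE 0.05, adjusted p = 0.04001, edgeR). At 6 months it had 1695 CPM in WT and 1679 in Nlrp3KO, below every library of 3 and 9 months, so its level did not follow the order of the ages.

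Cx3cr1 had 5040 to 5400 CPM at 3 months and 4034 to 4675 CPM at 9 months. Its log2 difference of -0.19 did not pass (SE 0.06, adjusted p = 0.0630, edgeR). Gpr34 had 2438 to 2488 against 1923 to 2349 CPM and a log2 difference of -0.13 (SE 0.05, adjusted p = 0.122). The remaining 5 genes lay between -0.02 and 0.06. These calls were not stable, since 0 of the 9 passed when any 1 of the 4 genotypes was left out or when HM cells alone were summed. Among HM, where 16.4% of genes passed and 2 members had an unadjusted p under 0.05, the log2 difference of Crybb1 was -0.03 (adjusted p = 0.641) and that of Siglech 0.14 (adjusted p = 0.0626). The scaling of libraries also mattered. With library totals in place of the trimmed mean of M-values (TMM), the median over all genes moved by -0.08, calls in the higher direction went from 54.7% to 32.9% of all calls, and Crybb1, Cx3cr1 and Gpr34 passed while Siglech (0.11, adjusted p = 0.156) did not.

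Of the 20 further homeostatic genes 9 fell and 1 rose with age, against the 23.3% of all genes called, with P2ry12 at -0.36 (SE 0.06), its relative P2ry13 at -0.26 and Sall1 at -0.31 on the log2 scale, and the transcription factor Mef2c at 0.23. Of the 13 DAM genes 7 rose. In HM cells alone 7 of the 20 fell and 2 rose, and of 12 DAM genes tested 1 rose, the protease inhibitor Cst7. The comparisons by age and by APP/PS1 used the same 8 libraries.

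**Figure D2:**
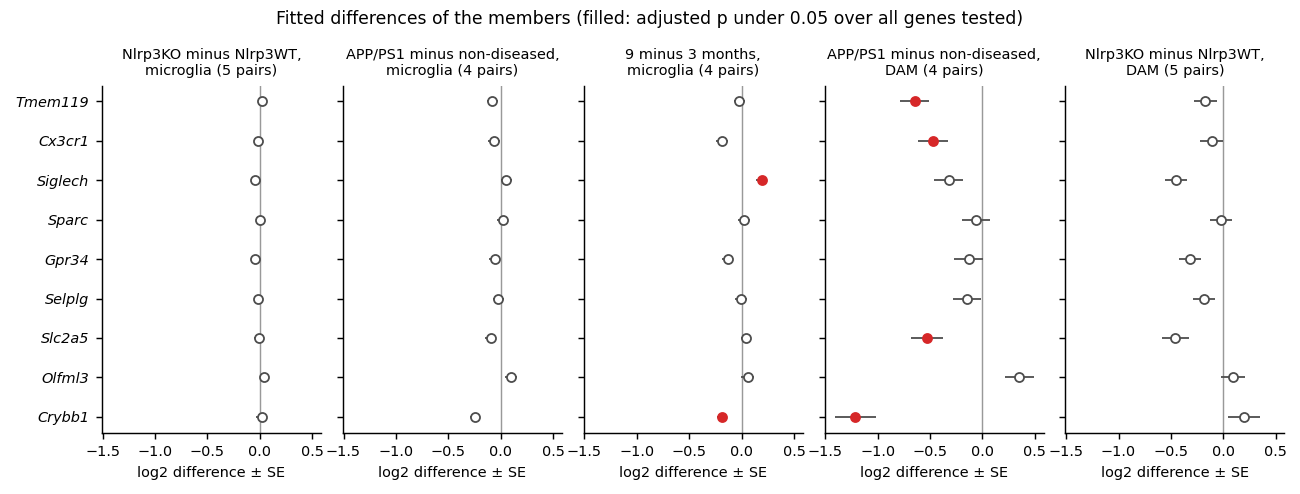
Log2 difference (x axis) with its SE for each gene in 5 fitted comparisons, with filled points for an adjusted p under 0.05 over all genes tested. Differences in all microglia lie within 0.25 of 0, and those in DAM between -1.22 and 0.35, with 4 filled points to the left for APP/PS1 against non-diseased mice.

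Between some microglial states of a library the 9 genes lay further apart than between genotypes. The states are clusters of the same cells, found with the expression of these genes among others, so these differences are given without a test, as the log2 ratio of CPM in a state to CPM in HM of the same library. In TM all 9 genes were lower than in HM in 10 of 10 libraries, where 27.1% of 8250 genes were, and their median was -0.54 against -0.21 over those genes. Slc2a5 had 234, 256 and 277 CPM in the lowest, median and highest library in TM and 427, 476 and 499 CPM in HM, a median ratio of -0.86 with no overlap. Tmem119 was at -0.55, Selplg at -0.55, Crybb1 at -0.55, Gpr34 at -0.54 and Cx3cr1 at -0.51. The smallest ratios were those of Siglech (-0.32), Sparc (-0.35) and Olfml3 (-0.26), and for each of the 9 genes the highest TM value was below the lowest HM value. The share of all genes without overlap between TM and HM was not counted. All 9 were thus lower in TM, with Slc2a5 farthest from HM.

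In IEG all 9 genes were again lower than in HM in 10 of 10 libraries (14.8% of genes), from -0.99 for Slc2a5 to -0.16 for Sparc. The libraries were less alike than in TM. For Tmem119 the ratio was -0.08 and -0.18 in WT and Nlrp3KO of 6 months, -0.68 to -0.86 in the 4 libraries of 3 months and -1.05 in WT of 9 months. In the other 3 libraries of 9 months it was -0.40, -0.40 and -0.25. The immediate early genes that define the state are known to respond to tissue dissociation, and the part of dissociation in these ratios was not tested. In IRM 7 of the 9 genes were lower in every library (7.82% of genes), with Slc2a5 (-0.49) and Gpr34 (-0.38) lowest and the other 7 between -0.21 and -0.14. In PM 6 of 9 were (6.15% of genes). There Crybb1 was at -0.44, Siglech at -0.35 and Gpr34 at -0.33, while the secreted proteins Sparc (0.01) and Olfml3 (0.07) were level with HM.

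**Figure D3:**
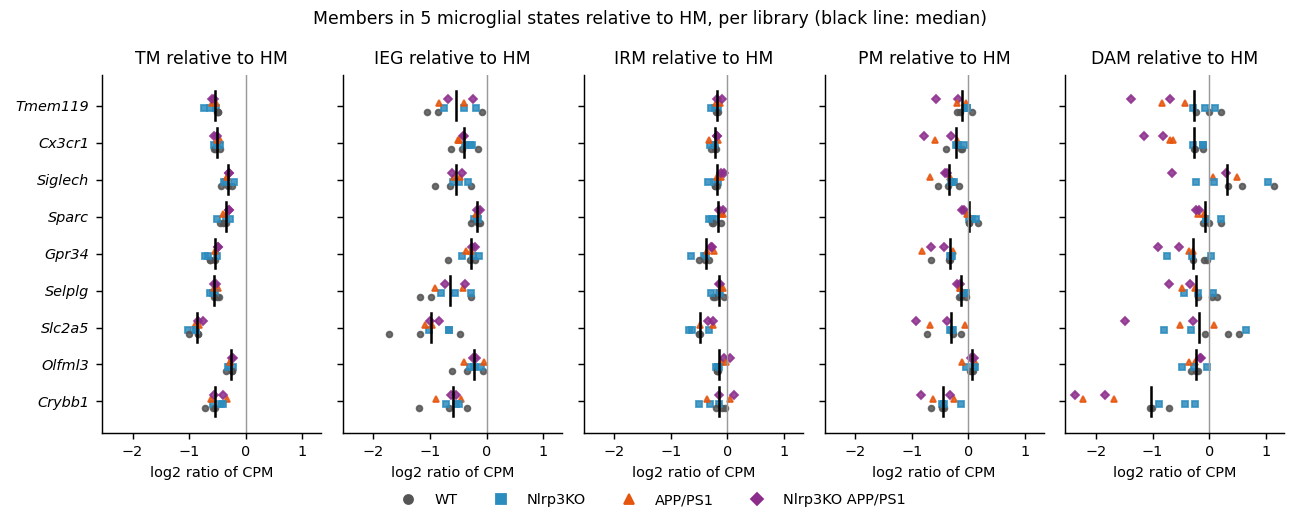
Log2 ratio of CPM in each of 5 states to CPM in HM of the same library (x axis) for the 9 genes, with 1 point per library and a black line at the median. TM points sit in tight groups left of 0, IEG points spread widely, and in DAM Crybb1 lies to the left with a median of -1.02 while Siglech lies mostly to the right.

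The ratios in DAM differed between the genes and with the annotation of states. Of the 9 genes 3 were lower than in HM in every library (8.51% of genes), and the median of the 9, -0.23, was close to the -0.24 of all 8250 genes. With the deposited annotation of all CD45+ cells, which counted 1416 DAM in place of 901, 6 of the 9 were lower in every library (14.9% of genes), and their median was -0.40 against -0.25. Crybb1 was lowest, at a median of -1.02 and a range of -2.36 to -0.26 over 10 libraries. Cx3cr1 was at -0.27 and Olfml3 at -0.23, both below 0 in every library, and Tmem119 at -0.26, below 0 in 8 of 10. Siglech had a median of 0.32 and was higher in DAM than in HM in 8 of 10 libraries. Its DAM level was 4418 CPM in WT of 9 months and 3862 in Nlrp3KO of 9 months, against 1186 CPM in Nlrp3KO APP/PS1 of 3 months and 1734 to 2079 CPM over all HM. This direction rested on the annotation, since with that of all CD45+ cells Siglech was higher in 5 of 10 libraries with a median of -0.059. Slc2a5 was at -0.18, at 0.088 in the libraries with 50 DAM or more, and at -0.51 with the annotation of all CD45+ cells, higher there in 1 of 10 libraries.

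DAM differed between APP/PS1 and non-diseased mice in 4 of the 9 genes, most in Crybb1. With the annotation of all CD45+ cells 1 of the 9 passed. This comparison was added after the data were seen, and DAM numbered 24 to 253 cells per APP/PS1 library and 31 to 102 per non-diseased library. Crybb1 had 96.7, 87.3, 137 and 119 CPM in DAM of APP/PS1 and Nlrp3KO APP/PS1 at 3 months and APP/PS1 and Nlrp3KO APP/PS1 at 9 months. In WT and Nlrp3KO it had 317 and 421 CPM at 3 months, 221 and 384 CPM at 6 months and 236 and 246 CPM at 9 months. All 4 APP/PS1 libraries lay below all 6 non-diseased libraries. In the 4 pairs Crybb1 fell by 1.22 on the log2 scale (SE 0.20, adjusted p = 0.00016, edgeR). Each gene kept few residual degrees of freedom in this fit of 4 pairs.

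Tmem119 had 910 and 618 CPM in the APP/PS1 libraries of 3 months and 1219 and 999.8 CPM in those of 9 months, in the order APP/PS1 and Nlrp3KO APP/PS1. WT and Nlrp3KO had 1454 and 1392 CPM at 3 months, 1681 and 1758 at 6 months and 1838 and 1728 at 9 months, so the groups did not overlap. It fell by 0.65 (SE 0.14, adjusted p = 0.00338). Cx3cr1 had 2406 to 3674 CPM in the APP/PS1 libraries and 3847 to 4970 CPM in the non-diseased, also without overlap, and fell by 0.47 (SE 0.14, adjusted p = 0.0358). Slc2a5 had 161 to 520 against 274 to 744 CPM, with overlap across ages but lower in 4 of 4 pairs, and fell by 0.53 (SE 0.15, adjusted p = 0.0310). These 4 of 9 were the members called, against 482 of 6331 genes, or 7.61%, of which 108, or 1.71% of genes tested, were lower. A complete separation of the 4 from the 6 libraries in the lower direction was seen in 4.23% of the same genes and in 3 of the 9.

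The other 5 genes did not pass. Siglech had a log2 difference of -0.32 (SE 0.14, adjusted p = 0.190) and was lower in 4 of 4 pairs, while Olfml3 had one of 0.35 (SE 0.14, adjusted p = 0.149). Sparc, Gpr34 and Selplg lay between -0.15 and -0.06. Of the further homeostatic genes 5 of 20 fell, among them P2ry12 (-0.48) and P2ry13 (-0.49), and 3 rose, the Fc receptor-like gene Fcrls (0.78), the lipid-sensing receptor Trem2 (0.76) and the integrin Itgb5 (0.60). With the annotation of all CD45+ cells Fcrls was the 1 that rose and Ecscr the 1 that fell, and of the DAM genes 8 rose. Of 13 DAM genes 12 rose, and their summed level was 40070 to 55986 CPM in DAM of the APP/PS1 libraries and 22618 to 26522 CPM in DAM of the others. The cells called DAM thus differed in the programme that names them, and its part in the differences of the identity genes was not tested. DAM had median depths of 6185 to 8019 UMIs in APP/PS1 and 4691 to 5397 in non-diseased libraries. Border-associated macrophage markers summed to 8.79 to 41.2 CPM and 0 to 55.9 CPM in the same groups. Monocyte markers summed to 3.29 to 38.6 CPM and 0 to 20.5 CPM. They were highest in APP/PS1 and Nlrp3KO APP/PS1 of 9 months, at 38.6 and 29.1 CPM, and their part in the differences was not tested.

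How far each call held differed between the genes. With 1 pair left out in turn, Crybb1 and Tmem119 passed in 4 of 4 fits, whereas Cx3cr1 and Slc2a5 passed in 1 of 4, that without the WT and APP/PS1 pair of 9 months. Without likely doublets Crybb1 (-1.18, adjusted p = 0.00767) and Tmem119 (-0.57, adjusted p = 0.0337) passed. When the states were taken from the CD45+ cell annotation, Crybb1 alone passed (-0.89, adjusted p = 0.000605), among 161 of 7713 genes or 2.09%, and Tmem119 was at -0.33 (adjusted p = 0.211), Cx3cr1 at -0.29 and Slc2a5 at -0.23. Scaling mattered here too. With library totals in place of TMM the median over genes shifted by -0.16, the higher share of calls went from 77.6% to 49.3%, and Siglech passed as well (-0.49, adjusted p = 0.00941).

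The DAM-to-HM difference was then compared between APP/PS1 and non-diseased mice in 1 fit over the DAM and HM sums of the 8 libraries, also added after the data were seen. The states were found with these genes among others, and the part of that choice of cells was not tested. Here 4 of the 9 genes passed, against 648 of 11129 genes or 5.82% (1.28% in the lower direction, which all 4 took). Relative to HM of the same library, DAM of APP/PS1 mice were changed in Crybb1 by a further -0.98 (SE 0.15, adjusted p = 1.3e-08), in Tmem119 by -0.55 (SE 0.12, adjusted p = 7.83e-05), in Cx3cr1 by -0.42 (SE 0.11, adjusted p = 0.00558) and in Slc2a5 by -0.43 (SE 0.13, adjusted p = 0.0242) on the log2 scale. In CPM, the DAM-to-HM ratio of Tmem119 lay between -1.39 and -0.43 in the 4 APP/PS1 libraries and between -0.29 and 0.20 in the 6 non-diseased libraries. With the annotation of all CD45+ cells these ranges were -1.27 to -0.37 and -0.51 to -0.075 and overlapped. For Crybb1 the ranges were -2.36 to -1.68 and -1.04 to -0.26, and with that annotation -1.85 to -1.51 and -1.21 to -0.50, apart in both. Each gene kept few residual degrees of freedom in this fit, which took most of its spread from all genes. The fit was repeated with DAM, but not HM, taken from the annotation of all CD45+ cells, so a cell could stand in both sums. There 4.34% of genes passed and 2 members did, Crybb1 (-0.69, adjusted p = 6.72e-07, edgeR) and Olfml3 in the higher direction (0.32, adjusted p = 0.0221).

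**Figure D4:**
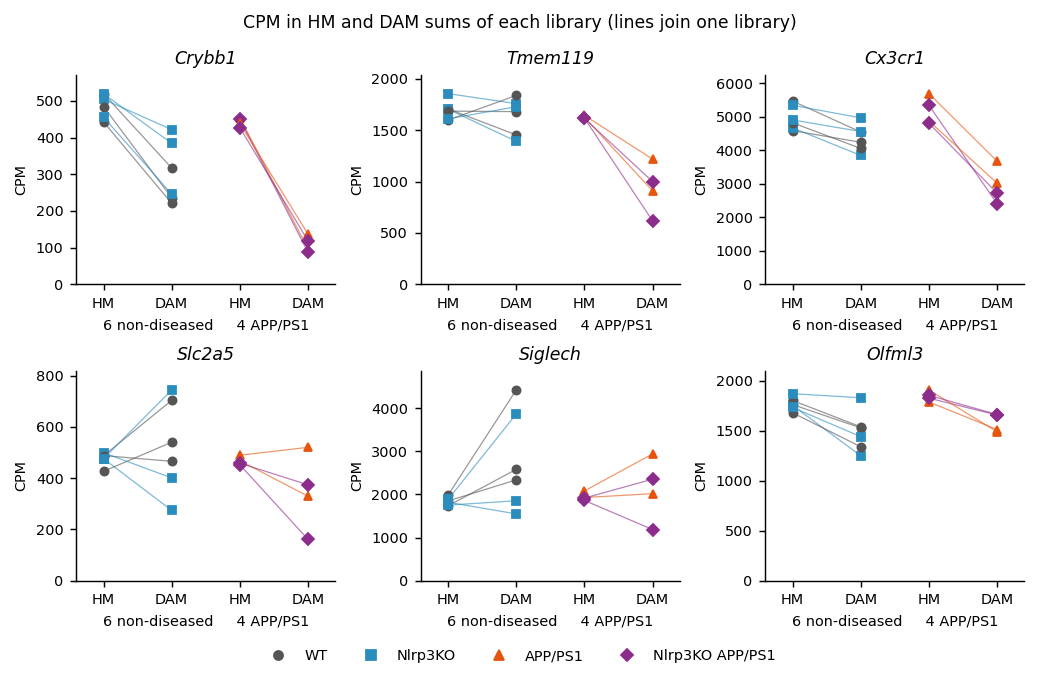
CPM of 6 genes in the HM and DAM sums of each library, with lines joining the sums of 1 library, for the 6 non-diseased and the 4 APP/PS1 libraries. Crybb1 in HM lies at 442 to 520 CPM on the left and at 427 to 454 CPM on the right. In DAM it lies at 221 to 421 CPM on the left and at 87.3 to 137 CPM on the right.

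The share of cells with a UMI of Crybb1 was lower in DAM than in HM as well. Of cells thinned to 1500 UMIs, 45.8% of 31953 HM had a Crybb1 UMI (95% exact binomial interval from 45.3%) and 22.3% of 901 DAM did (from 19.6%), beside 1.001% of 1598 T cells, which should lack it. APP/PS1 libraries gave 562 of these DAM, so the DAM share leans on them. Split by library, in a step added after the data were seen, 17.6% of 562 APP/PS1 DAM and 30.1% of 339 non-diseased DAM had a UMI, beside 43.1% and 47.3% of their HM. Unthinned shares were 76.1% in HM and 53.8% in DAM at median depths of 4366 and 5726 UMIs, with 5810 in T cells. Slc2a5 was found in 48.4% of HM, 47.1% of DAM and 30.1% of TM. Cx3cr1 was found in 99.9% of HM and 96.2% of DAM. A cell with UMIs of 5 or more of the 9 genes was the rule in microglia, with 99.7% of HM and 94.3% of DAM, and rare in T cells, with 3.13%. Intervals and shares cover counting error only, and cells of 1 library are not replicates.

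In DAM, the Nlrp3 deletion gave 0 called members, against 9 of 5789 genes or 0.155% (edgeR, a comparison added after the data were seen). The DESeq2 Wald test called 3 genes, and 3 members had an unadjusted p under 0.05 in edgeR. The share of all genes under that unadjusted p is not given here. Siglech had the smallest p, with 1549, 1186, 1852, 3862 and 2353 CPM in Nlrp3KO libraries and 2336, 2017, 2580, 4418 and 2939 CPM in their Nlrp3WT partners, in the order non-diseased 3 months, APP/PS1 3 months, non-diseased 6 and 9 months and APP/PS1 9 months. It was lower in all 5 pairs, by a log2 difference of -0.45 (SE 0.11, adjusted p = 0.0790). Over the 5 fits that left out 1 pair, 0 to 1 members passed. Siglech passed without the non-diseased pair of 9 months (-0.49, adjusted p = 0.0454, edgeR). Gpr34 was lower in 5 of 5 pairs as well (-0.32, adjusted p = 0.341), and Slc2a5 in 4 of 5 (-0.46, adjusted p = 0.199). With the annotation of all CD45+ cells, where 0.122% of genes passed, the difference of Siglech was -0.24 (adjusted p = 0.893).

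Outside microglia most of the 9 genes were found at a low and even share of the microglial level, with a few exceptions. Members were among the genes that name microglia, so these levels are descriptions. In 1598 T cells, libraries pooled, 8 of the 9 genes stood at 3.45% to 4.92% of the microglial CPM, near a single ratio. Selplg stood at 19.6%. Over the 10 libraries T cell Tmem119 ranged from 4.15 to 232 CPM, with a median of 20.8 CPM against 66.6 CPM pooled. After thinning 3.19% of T cells had a Tmem119 UMI. Gpr34 ranged from 27.8 to 345 CPM, while Selplg stayed between 451 and 861 CPM. NKT cells had Crybb1 at 0 of 1169018 UMIs, Tmem119 at 0.163% and Selplg at 16.8% of the microglial level, and NK cells had Selplg at 25.1%. Selplg, known from most leukocytes, was thus above the other 8 genes in each of these 3 types. Gpr34 was a further exception. In NKT cells it came next at 3.75%, followed by Slc2a5 at 0.395%. In innate lymphoid cells (ILC2) Gpr34 stood at 4.27% and Cx3cr1 at 2.91%.

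Siglech was higher in plasmacytoid dendritic cells (pDC), where it is a known surface marker, than in microglia. In 102 pDC it had 2884 CPM, or 160% of the microglial level, and 96.1% of pDC had a UMI after thinning, against 3.07% of T cells. The other genes apart from Selplg stood at 3.88% to 6.23% there. Border-associated macrophages, the macrophages of meninges and vessels, had Cx3cr1 at 25.2% (1227 CPM, 1104 to 1440 over 10 libraries) and Olfml3 at 12.4% of the microglial level, but Slc2a5 at 2.37% and Crybb1 at 3.09%. Those annotated as a Lyve1 type had Cx3cr1 at 20.02%, Gpr34 at 15.4%, Siglech at 14.6% and Crybb1 at 13.9%. Nonclassical monocytes had Cx3cr1 at 24.0%. Without likely doublets Selplg in T cells was at 16.3% and Cx3cr1 in border-associated macrophages at 23.4%, so neither exception was lost.

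**Figure D5:**
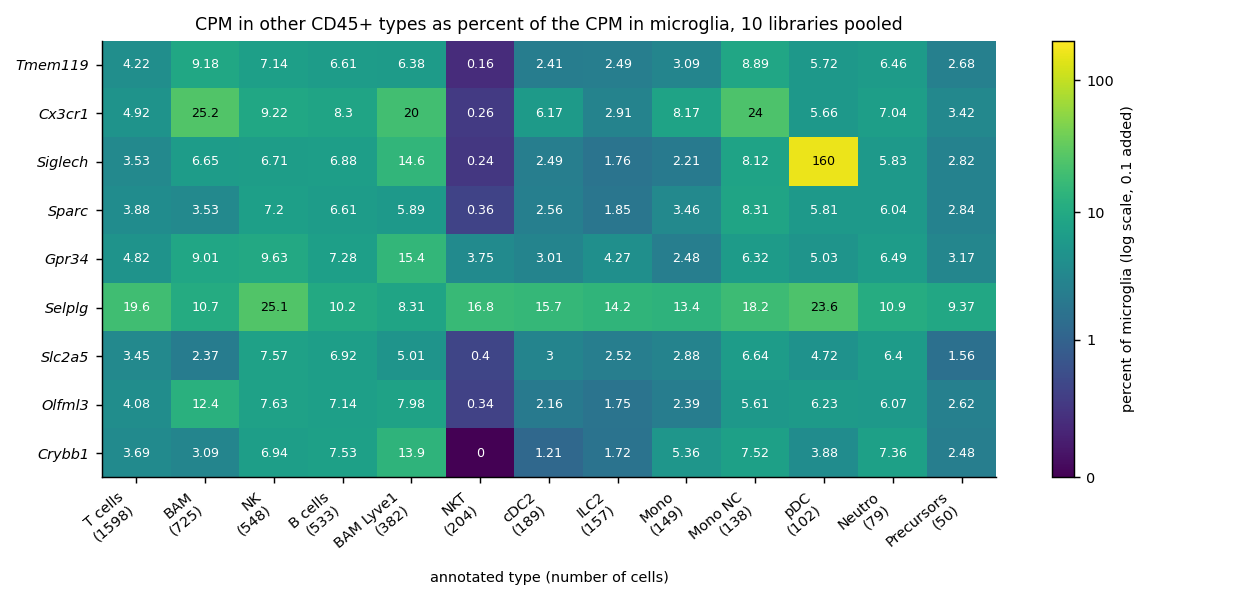
CPM of each gene in 13 other CD45+ types as percent of its CPM in microglia, libraries pooled, on a log colour scale with the number of cells under each type. Siglech in pDC (160%) and the row of Selplg stand out, and most other fields lie between 1 and 10%.

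Over the 60 sums of a state in a library, the genes whose level was most like the mean of the 9 were P2ry12 (Pearson r of 0.914), the cell-spreading adaptor Mtss1 (0.890), P2ry13 (0.888), the transcription factor Maf (0.885) and Ivns1abp (0.884), out of 8329 genes compared. The DAM genes compared had r between -0.76 (Lpl) and -0.37 (Spp1). These are descriptions over sums that share libraries and depths, since 6 states came from each of 10 libraries.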

How the data were processed

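Cells were sorted as CD45+ from brain, and per the study's methods libraries (10x 3' v3) were aligned to mouse mm10 with Cell Ranger and cells filtered at 3 median absolute deviations. The authors deposited raw UMI counts per gene and cell, unnormalized, and annotations with condition, cell type, a doublet score (a fraction, caller not given in the sources used here), the percent of mitochondrial and the fraction of ribosomal UMIs deposited with them. Of the 52369 cells, 6897 carried 2 condition names that matched no sample label and were not used. The remaining 45472 cells came from 10 libraries, with median depths of 3978 to 5985 UMIs per microglia. Libraries were paired by age and background for Nlrp3, by age and Nlrp3 genotype for APP/PS1 and by genotype for age, and these pairs were blocks.

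UMI counts were summed per library over all microglia, HM or DAM, and tested with edgeR 4.0.16 (quasi-likelihood, TMM, filterByExpr) in R 4.3.3, with Benjamini-Hochberg adjustment over all genes and a call at an adjusted p under 0.05. DESeq2 1.42.0 was an alternative. The fits were tested on simulated counts with planted differences larger than any fitted here for the 9 genes. That check does not bear on power at the differences reported. CPM are UMIs per 1000000 of the sum, log2 ratios of states used a prior count of 2 UMIs and sums of 20 cells or more, and shares of cells were taken after thinning to 1500 UMIs. Libraries are single per genotype and age, so p-values measure the spread between pairs of different ages and genotypes. Fits over these few pairs kept few residual degrees of freedom per gene. Counts at an unadjusted p under 0.05 are set beside those of all genes only for the Nlrp3 comparison in microglia. The genes named were the 9 members, 20 further homeostatic genes, 13 DAM genes as a list and the 5 genes most like the members. The members and lists were chosen with earlier results of these data known. Comparisons in DAM, of DAM with HM, and by library totals were added after the data were seen. Other settings left out 1 pair, likely doublets (score over 0.5), the filter or the block, or used DESeq2 size factors, HM alone or the annotation of all CD45+ cells.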

Additional observations from a re-analysis of the deposited data

Results flagged for a closer look

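Over 81 groups of library values examined, 2 held a library far from the rest, where about 4.05 would be at 1 in 20. Slc2a5 in the microglia of WT at 6 months was at 398 CPM, while the other 5 non-diseased libraries had 438 to 461 CPM. The log2 ratio of Tmem119 in PM to HM was -0.57 in Nlrp3KO APP/PS1 at 9 months, while the other 9 libraries had -0.21 to 0.07.

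An edgeR test over 8 libraries called the DAM-to-HM difference unlike between APP/PS1 and non-diseased mice for 4 genes. The states were found with these genes among others, so the calls describe the cells annotated as DAM. The values on the log2 scale were -0.98 for Crybb1, -0.55 for Tmem119, -0.42 for Cx3cr1 and -0.43 for Slc2a5. Crybb1 kept its call with DAM, but not HM, taken from the annotation of all CD45+ cells, and the other 3 did not.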

How the results depend on the processing

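In all microglia, the comparison by Nlrp3 called 5 genes, and 3 with an added fold limit of 1 on the log2 scale, 12 with DESeq2 and 3 to 16 without 1 pair, with 0 members in each. The comparison by APP/PS1 called 7 genes, 12 by library totals, 52 with DESeq2 (1 member), 0 in HM alone and 0 to 17 without 1 pair (0 members). The comparison by age called 2856 genes and 2 members, 480 genes and 0 members with the fold limit, 0 members in HM alone and 910 to 2300 genes with 0 members without 1 genotype. The change of the APP/PS1 effect with age called 7 genes with DESeq2, and that of the Nlrp3KO effect with background 1.

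In DAM, APP/PS1 called 482 genes and 4 members, 182 and 1 with the fold limit, 238 genes with DESeq2, 314 and 2 without likely doublets, 161 and 1 with the annotation of all CD45+ cells, and 236 to 453 and 2 to 4 without 1 pair. There Nlrp3 called 9 genes and 0 members, 14 genes with DESeq2 size factors, 3 with DESeq2, 53 and 1 without the filter, 5 without the pair block, and 4 to 27 and 0 to 1 without 1 pair. The DAM-to-HM difference called 4 members, and 2 with DAM, but not HM, taken from the annotation of all CD45+ cells. With library totals its median over genes moved by -0.23 and its share of higher calls from 77.9% to 38.0%. The cause of these changes was not tested.

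The sign in DAM turned for Siglech with the annotation of all CD45+ cells (-0.059) and for Slc2a5 in libraries with 50 DAM or more (0.088). The median in TM was -0.47 with that annotation. Crybb1 was found in 34.7% of HM and 15.2% of DAM at 1000 UMIs, and in 76.1% and 53.8% unthinned. Selplg in T cells and Cx3cr1 in border-associated macrophages moved to 16.3% and 23.4% without likely doublets. The libraries carry no shared replicate numbers, and the pairs used as blocks come from genotype and age. Depth limits the values in DAM, with as few as 24 cells and 22 Crybb1 UMIs in a library.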
